A study of Arabidopsis thaliana with 12 samples.

Results

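The 2 windows described here lie side by side on chromosome 4 of Arabidopsis thaliana, across the junction of the neighbouring ABC transporter genes ABCG30 and ABCG42. They were named by their identifiers in the deposited tables (enhancer_001269 and enhancer_001270, called window 1269 and window 1270 below) and are 2 of the 1919 windows of 3000 bp that the study called putative enhancers. They were chosen by their poly(A)+ signal, which was lower after knockdown of RRP41, so that difference is described here without a test. Window 1269 spans chr4:8685648-8688647 and window 1270 chr4:8686400-8689399 (TAIR10, counted from 1). They share 2248 bp, and 752 bp belong to each alone, so they are overlapping readings of 1 locus and not 2 independent observations.

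ABC transporters are membrane proteins that use ATP to carry substrates across a membrane. The ABCG proteins of plants move hormones, parts of the cuticle and defence compounds, and the full-size ones, to which ABCG30 and ABCG42 belong, are also called pleiotropic drug resistance transporters. ABCG30 is known as an importer of the stress hormone abscisic acid into the Arabidopsis embryo, where it works with other transporters that release the hormone from the endosperm. ABCG42 is annotated in the same subfamily. RRP41 is a core subunit of the RNA exosome, a complex that removes or shortens RNA starting at its 3' end, and cells that lack it keep RNAs that are otherwise broken down.

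Both genes are read from the plus strand, and no gene is annotated on the minus strand of either window. ABCG30 (AT4G15230, chr4:8679754-8687519) ends inside both windows, and ABCG42 (AT4G15233, chr4:8687354-8694733) begins inside both. Their annotated ends overlap by 166 bp. The midpoint of window 1269 falls in a noncoding exon of ABCG30, 371 bp before its annotated end. The midpoint of window 1270 falls in a noncoding exon of ABCG42, 546 bp after its annotated start. Window 1269 holds 1297 bp of ABCG30 exons, of which 733 bp are coding, and 1110 bp of ABCG42 exons, of which 302 bp are coding. Window 1270 is weighted the other way, with 852 bp of ABCG30 exons (288 bp coding) and 1553 bp of ABCG42 exons (745 bp coding). A signal on the plus strand of either window can therefore come from the last exons of ABCG30, from the first exons of ABCG42, or from RNA that runs across both, and the deposited values do not separate these.

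ABCG30 and ABCG42 are the middle members of a row of 4 related genes on the same strand, ABCG41, ABCG30, ABCG42 and ABCG43, that spans 31.4 kb. Because reads from near-identical copies can be misplaced, the exons that the 2 windows cover are shown with those of their relatives. The last coding exon of ABCG30 (chr4:8686614-8686880, plus strand, 267 bp) lies in both windows. It is 91.8% identical to the last coding exon of ABCG41 (chr4:8678608-8678874) and 80.5% identical to that of ABCG42 (chr4:8694166-8694432). In the lines that follow, read 5' to 3' from the reference genome, capitals mark the bases that differ from ABCG30, 22 in ABCG41 and 52 in ABCG42.
ABCG30: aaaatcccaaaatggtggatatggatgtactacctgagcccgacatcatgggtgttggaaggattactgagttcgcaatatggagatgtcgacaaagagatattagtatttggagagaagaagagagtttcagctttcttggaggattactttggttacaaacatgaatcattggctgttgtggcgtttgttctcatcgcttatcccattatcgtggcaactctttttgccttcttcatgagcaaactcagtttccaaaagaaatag
ABCG41: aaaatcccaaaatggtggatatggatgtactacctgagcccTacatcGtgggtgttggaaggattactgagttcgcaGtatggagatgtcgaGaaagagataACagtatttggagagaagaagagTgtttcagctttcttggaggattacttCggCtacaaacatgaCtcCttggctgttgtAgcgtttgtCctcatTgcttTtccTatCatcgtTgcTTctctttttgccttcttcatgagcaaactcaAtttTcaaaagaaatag
ABCG42: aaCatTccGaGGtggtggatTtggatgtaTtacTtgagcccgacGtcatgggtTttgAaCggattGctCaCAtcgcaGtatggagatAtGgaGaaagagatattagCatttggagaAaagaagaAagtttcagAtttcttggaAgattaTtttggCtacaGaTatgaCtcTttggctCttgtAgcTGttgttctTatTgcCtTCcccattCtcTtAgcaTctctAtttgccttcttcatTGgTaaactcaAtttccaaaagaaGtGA

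The first coding exon that all 8 annotated ABCG42 transcripts share (chr4:8688710-8688833, plus strand, 124 bp) lies in window 1270 and not in window 1269. It is 94.4% identical to the matching exon of ABCG43 (chr4:8697053-8697176), with 7 bases that differ, and 73.4% identical to that of ABCG30 (chr4:8680709-8680832), with 33. Capitals here mark the bases that differ from ABCG42.
ABCG42: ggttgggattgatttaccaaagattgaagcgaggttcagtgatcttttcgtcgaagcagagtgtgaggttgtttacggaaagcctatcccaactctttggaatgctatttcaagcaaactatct
ABCG43: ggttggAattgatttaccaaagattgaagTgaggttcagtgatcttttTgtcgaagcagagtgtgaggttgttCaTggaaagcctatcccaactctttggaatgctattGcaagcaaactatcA
ABCG30: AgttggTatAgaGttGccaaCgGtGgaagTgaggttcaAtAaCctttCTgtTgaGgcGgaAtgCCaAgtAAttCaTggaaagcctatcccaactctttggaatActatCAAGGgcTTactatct

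Across both windows, 100% of the stretches of 50 bases occurred once in the reference genome on either strand. The share was 93.2% in window 1271 and 98.4% in window 1272, which hold the end of ABCG42. The copies are thus alike in their coding exons, but no 50-base stretch of the 2 windows is repeated exactly elsewhere. How the authors treated reads that fit more than 1 place is not given in the sources used here.

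RNA came from whole seedlings 7 days old of 1 line, in which estradiol switches on RNA interference against the RRP41 gene. Uninduced seedlings of that line were the control, and the induced group had germinated and grown on plates with 17b-estradiol. Both groups therefore carry the construct, and estradiol, induction and loss of RRP41 cannot be told apart. Poly(A)+ libraries, made from RNA with a poly(A) tail, and ribo-minus libraries, made by removing ribosomal RNA and so keeping RNA with and without a tail, were prepared from the same total RNA. With 2 conditions and 2 kinds of library there were 4 groups of 3 biological replicates, 12 libraries in all. The promoter that drives the construct and the number of independent transformants are not given in the sources used here.

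The values are the authors' signal per window and strand, in whole numbers of an unstated scale, and read depth is unknown. The smallest value above 0 ranged from 107 to 1005 between libraries, and 1005 is used below as a common floor. All 24 plus-strand values of the 2 windows were above it. In ribo-minus uninduced replicate 1, the columns for the plus and minus strand were identical in 100% of windows, so its values are not strand-specific, and results that it changes are also given without it. In the other 11 libraries the annotated strand had the higher signal in 96.9% to 99.1% of windows that hold genes on 1 strand only and differ between strands. RRP41 itself lies in none of the windows, so the knockdown could not be checked here. The seedling label could not be checked with marker genes either, since 0 of 10 shoot markers and 1 of 10 root markers have a window.

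In uninduced seedlings, the poly(A)+ signal of window 1269 was 4274, 5302 and 8970 in the 3 replicates, a mean of 6182 ± 2469 (SD, n = 3). After knockdown it was 2345, 2343 and 1842, a mean of 2177 ± 290 (SD, n = 3). Every uninduced library was above every induced one, and the uninduced libraries were far more spread out. Window 1270 had 4674, 5101 and 8052 in uninduced libraries, a mean of 5942 ± 1839 (SD, n = 3). In induced libraries it had 2036, 1992 and 1867, a mean of 1965 ± 87.7 (SD, n = 3). Here too the groups did not overlap, and the 3 induced libraries were nearly equal.

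The mean signal was 64.8% lower in window 1269 and 66.9% lower in window 1270, log2 changes of -1.44 ± 0.29 and -1.55 ± 0.23 (SE). This contrast chose the windows, so no test is given and nothing is read from it. As background, 4.12% of the 3297 strands tested in this contrast passed an adjusted p of 0.05 in either direction (limma, Benjamini-Hochberg), and 16.0% had every induced library below every uninduced one. An unadjusted p under 0.05 was found for 714 of the 3297 strands. Uninduced replicate 3 was the highest library in both windows, and without it the log2 changes were the smallest of those with 1 library left out, -1.14 and -1.31. In bulk tissue, fewer cells that express a gene and less RNA per cell cannot be told apart. The 1 root marker with a window, ESB1, a protein of the endodermal Casparian strip, fell in poly(A)+ from 9098 ± 1579 to 4584 ± 361 (SD, n = 3 each, adjusted p = 0.016 by limma). In ribo-minus its log2 change was -0.73 ± 0.64 (SE) and did not pass (adjusted p = 0.96 by limma). The other 9 root markers have no window, and the part of root tissue in the values of the 2 windows was not tested.

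**Figure D1:**
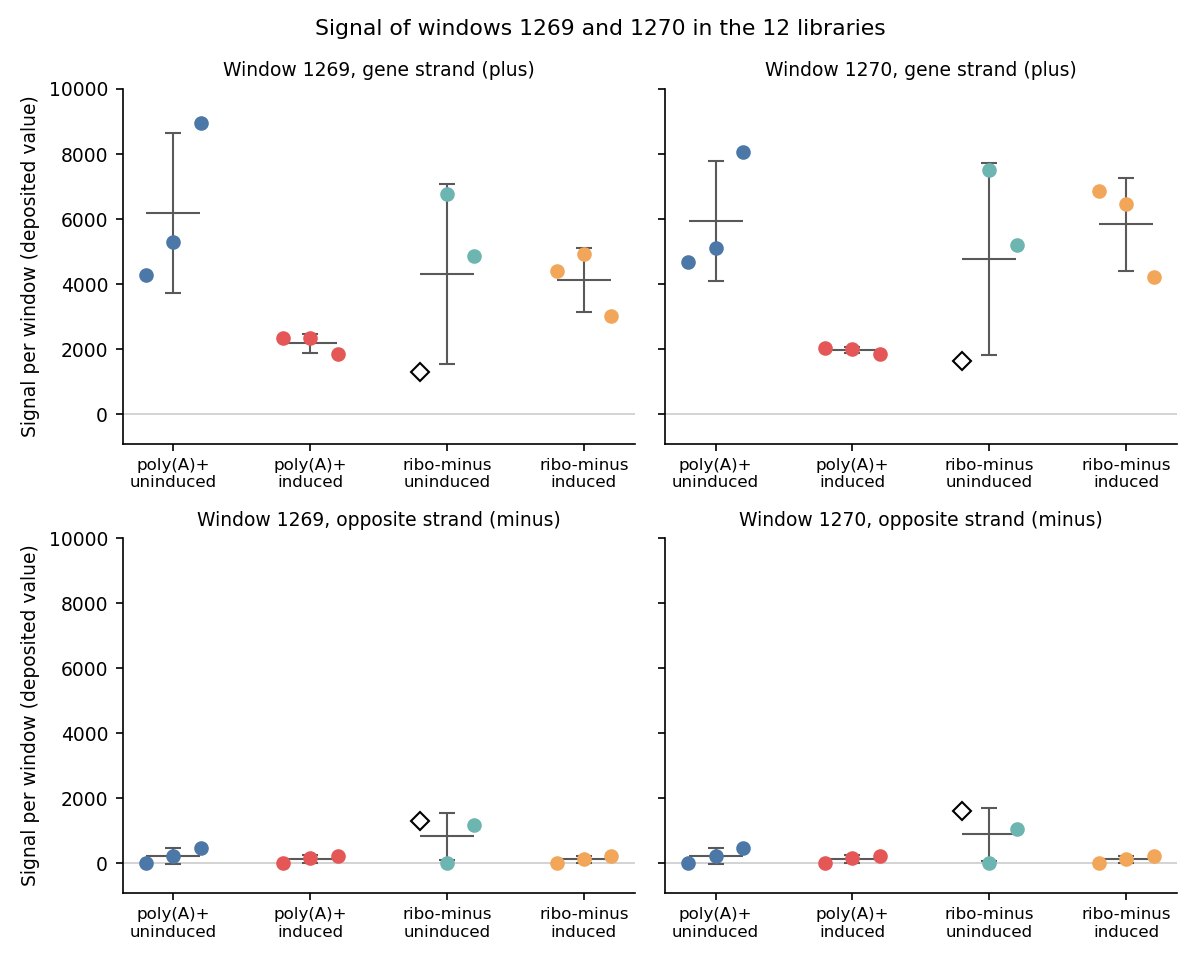
Signal (y axis, the authors' deposited value) of windows 1269 and 1270 in each library, on the plus strand that holds ABCG30 and ABCG42 (top) and on the minus strand (bottom). Points are libraries, horizontal lines and bars are the mean and SD of 3 replicates, and the open diamond is the ribo-minus library whose strands are not separated. On the plus strand, the 3 induced poly(A)+ libraries sit between 1842 and 2345, below all 3 induced ribo-minus libraries.

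In the ribo-minus libraries the uninduced and induced values of both windows overlapped. Window 1269 had 1314 in the library without strand separation and 6769 and 4854 in the other uninduced replicates, against 4392, 4939 and 3026 in induced seedlings. The lowest of the 6 values is that of the library without strand separation. Window 1270 had 1629 in that library and 7505 and 5190 in the other uninduced replicates, against 6849, 6471 and 4207 after knockdown. The induced values lie between 4207 and 6849, and the strand-separated uninduced ones (5190 and 7505) overlap that range. The mean of the induced libraries was 4119 ± 985 in window 1269 and 5842 ± 1429 in window 1270 (SD, n = 3 each).

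The log2 change in the ribo-minus libraries was 0.20 ± 0.52 (SE) for window 1269, with a 95% confidence interval of -0.88 to 1.28 and an adjusted p of 0.96 (limma). For window 1270 it was 0.52 ± 0.48, with an interval of -0.47 to 1.51 and the same adjusted p. Without the library whose strands are not separated, the estimates changed sign, to -0.51 ± 0.28 (interval -1.17 to 0.16, adjusted p = 0.45 by limma) and -0.13 ± 0.28 (interval -0.78 to 0.53, adjusted p = 0.87 by limma). Neither window passed the threshold with or without it. Of the 3231 strands tested in this contrast, 0.155% passed, which is 5 strands, all higher after knockdown (172 had an unadjusted p under 0.05). That direction does not hold under every setting, since 29 of 40 calls were lower without a filter and 48 of 61 without uninduced replicate 2. The intervals with all libraries reach down to a fall of 0.88 on the log2 scale for window 1269, and without the library they reach 1.17. The upper ends with all libraries are 1.28 for window 1269 and 1.51 for window 1270. Changes of either direction within these intervals are thus not excluded with 3 replicates a group.

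The change after knockdown was 1.64 ± 0.69 (SE, log2) higher in the ribo-minus than in the poly(A)+ libraries for window 1269 and 2.07 ± 0.63 higher for window 1270. Without the library whose strands are not separated, these differences were 0.94 ± 0.43 (95% interval -0.01 to 1.88) and 1.43 ± 0.38 (0.59 to 2.27). As background with all libraries, the median over 3600 strands was 0.15, and 13.1% of strands had a difference above that of window 1269. Of these 3600 strands 6 passed limma's test, 1 with a higher and 5 with a lower change in ribo-minus. The differences of both windows contain the poly(A)+ libraries that chose the windows, so no p is given. The same holds for the comparisons of the 2 kinds of library that follow.

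In induced seedlings, both windows had more signal in the ribo-minus than in the poly(A)+ libraries, which come from the same total RNA. For window 1269 the 3 ribo-minus values (4392, 4939 and 3026) were all above the 3 poly(A)+ values (2345, 2343 and 1842), and the ratio of the means was 1.89. For window 1270 the ribo-minus values (6849, 6471 and 4207) were all above the poly(A)+ values (2036, 1992 and 1867), with a ratio of 2.97. On the log2 scale the differences were 0.90 ± 0.49 and 1.54 ± 0.45 (SE). As background, 2.14% of the 3600 strands tested had every induced ribo-minus library above every induced poly(A)+ library, and 41.3% passed the test as lower in ribo-minus. The median difference over all 3600 strands was -1.34, and 7.81% of strands had a difference above that of window 1269. Scaling each library by its median ratio, which moves that median to 0.04, gave 2.3 for window 1269 and 2.94 for window 1270.

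In uninduced seedlings the 2 kinds of library overlapped. Window 1269 had 6769 and 4854 in the strand-separated ribo-minus libraries, within the range of 4274 to 8970 seen in poly(A)+. Window 1270 had 7505 and 5190, within the range of 4674 to 8052. With all libraries, the log2 differences of ribo-minus from poly(A)+ were -0.74 ± 0.49 and -0.53 ± 0.45 (SE), and without the library whose strands are not separated they were -0.04 ± 0.32 and 0.11 ± 0.29. The median over all strands was -1.5 (-1.44 without that library), and 41.5% of strands passed the test as lower in ribo-minus (49.2% without it). Under median-ratio scaling, with a median of 0.03, the differences turned to 0.82 and 1.03, so their sign depends on the scale. In induced seedlings the estimates were above 0 both without scaling and with it, and other scales were not tried.

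Ranked within each library, the windows stood in the middle of all 3838 window strands in poly(A)+ RNA of induced seedlings. Between 50.3% and 54.2% of strands were below them there, and between 59.5% and 68.2% in uninduced seedlings. In ribo-minus libraries they ranked higher, above 67.5% to 80.6% of strands in induced seedlings and above 72% to 81.1% in the strand-separated uninduced libraries. In the library without strand separation they were above 35.0% and 41.0% of strands. A rank does not depend on a library's scale, but it counts strands at 0, and more of these raise it. In poly(A)+ libraries 3015 to 3377 strands were above 0. In ribo-minus it was 2420 and 2610 in the strand-separated uninduced libraries and 2689, 3368 and 3262 in the induced ones. With strands at 0 counted, the rank placed both windows higher in the strand-separated ribo-minus libraries than in the poly(A)+ libraries, with 1 exception. Ranks among strands above 0 were not taken. Window 1269 ranked at 67.5% in induced ribo-minus replicate 3, below its own highest poly(A)+ rank of 68.2%.

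The 2 windows were close to equal in poly(A)+ RNA. The signal of window 1270 was 0.898 to 1.09 times that of window 1269 in uninduced libraries and 0.85 to 1.01 times in induced ones. In ribo-minus RNA of induced seedlings it was 1.31 to 1.56 times as high, above all other libraries, and in the strand-separated uninduced ribo-minus libraries it was 1.07 and 1.11 times as high. The 752 bp that belong to window 1270 alone lie in the first part of ABCG42, and those of window 1269 alone in the last part of ABCG30. This pattern was noticed after the values were seen and has no test.

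The minus strand carried little signal in either window. In window 1269 the 11 strand-separated libraries had 0 in 4 of them and the library's smallest value above 0 in 3. The highest value was 1180, in ribo-minus uninduced replicate 3, where it made up 19.6% of the signal of both strands, and the other 10 libraries were under the common floor of 1005. In window 1270 the same libraries were at 0 or at the smallest value, and the highest was 1048 in that same library, a share of 16.8%. In poly(A)+ the minus-strand values of the 2 windows were the same in all 6 libraries: 0, 228 and 471 uninduced, and 0, 181 and 216 induced.

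The minus-strand share of window 1269 was 3.04% ± 2.67 in uninduced and 5.89% ± 5.36 in induced poly(A)+ libraries (SD, n = 3 each). In ribo-minus libraries it was 9.78% ± 13.8 (SD, n = 2 strand-separated) and 3.31% ± 3.69 (SD, n = 3). Window 1270 had shares of 3.27% ± 2.90, 6.23% ± 5.49, 8.40% ± 11.9 and 2.48% ± 2.7 in the same order. These means rest on libraries at 0 beside 1 or 2 above it. The poly(A)+ shares contain the plus-strand values that chose the windows, so they are given without a test. In ribo-minus the share of induced and uninduced seedlings was compared by 2 two-sided exact permutation tests, 1 for each window, and p and the adjusted p were 0.8 in both. The smallest p that 3 against 2 libraries can give is 0.2, so neither could have passed.

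The other windows of the 4-gene row were read from the same strand and set beside the 2 windows. Windows 1267 and 1268, over the end of ABCG41 and the start of ABCG30, had low poly(A)+ means of 935 and 804 in uninduced and 907 and 825 in induced seedlings, all under the common floor. Their log2 changes were -0.01 and 0.03. The windows over the start of ABCG30 thus had means under that floor, which was set by a ribo-minus library, and the poly(A)+ libraries' own smallest values above 0 were 181 to 450. Those over its end, which also hold the start of ABCG42, had means of 6182 and 5942 in uninduced seedlings. Window 1269 had 5.47 to 10.4 times the signal of window 1268 in uninduced poly(A)+ libraries and 2.36 to 3.30 times in induced ones. Since all windows have the same length, these are ratios of signal per window and not of exon length.

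Window 1271, over the last coding exon of ABCG42 and a stretch beyond its end that holds the noncoding gene AT4G02945, was the highest of the row in poly(A)+. It had 9139, 14474 and 9863 in uninduced libraries and 14383, 12409 and 8322 in induced ones. The groups overlap, and the log2 change was 0.06 ± 0.25 (SE, 95% interval -0.52 to 0.65, adjusted p = 0.92 by limma). Window 1272, which reaches into ABCG43, changed by -0.31 (adjusted p = 0.54 by limma), and window 1273, over the start of ABCG43, by 0.73 (adjusted p = 0.55 by limma). Of the 5 other windows of the row, 0 passed limma's test in either knockdown contrast, and 0 had an unadjusted p under 0.05. Over all strands, 714 of 3297 in poly(A)+ and 172 of 3231 in ribo-minus had such a p. ABCG42 was thus read at both ends. The lower poly(A)+ signal was seen in the windows at its beginning, where it overlaps the end of ABCG30, and was not detected in the window at its end.

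The ratio of window 1271 to window 1270 was taken within each library, so that the library's scale cancels. It was 1.96, 2.84 and 1.23 in uninduced poly(A)+ libraries and 7.06, 6.23 and 4.46 in induced ones. In the strand-separated ribo-minus libraries it was 1.04 and 0.559 in uninduced seedlings, and 0.619, 0.497 and 0.445 in induced ones. Window 1271 thus gave more signal than window 1270 in every poly(A)+ library and less in 4 of 5 strand-separated ribo-minus libraries. Window 1270 also holds exons of ABCG30, so the ratio does not compare the 2 ends of ABCG42 alone. The ratio contains the poly(A)+ signal that chose window 1270, so it has no test. Windows 1271 and 1272 were lower in ribo-minus than in poly(A)+ RNA in induced seedlings, by log2 differences of -1.95 and -2.10 (adjusted p = 0.0029 and 0.0031 by limma), where windows 1269 and 1270 were higher. They were also lower in uninduced seedlings, by -1.81 and -1.96 (adjusted p = 0.0048 and 0.0047 by limma). Over all strands, 41.3% passed as lower in induced and 41.5% in uninduced seedlings, with medians of -1.34 and -1.5.

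**Figure D2:**
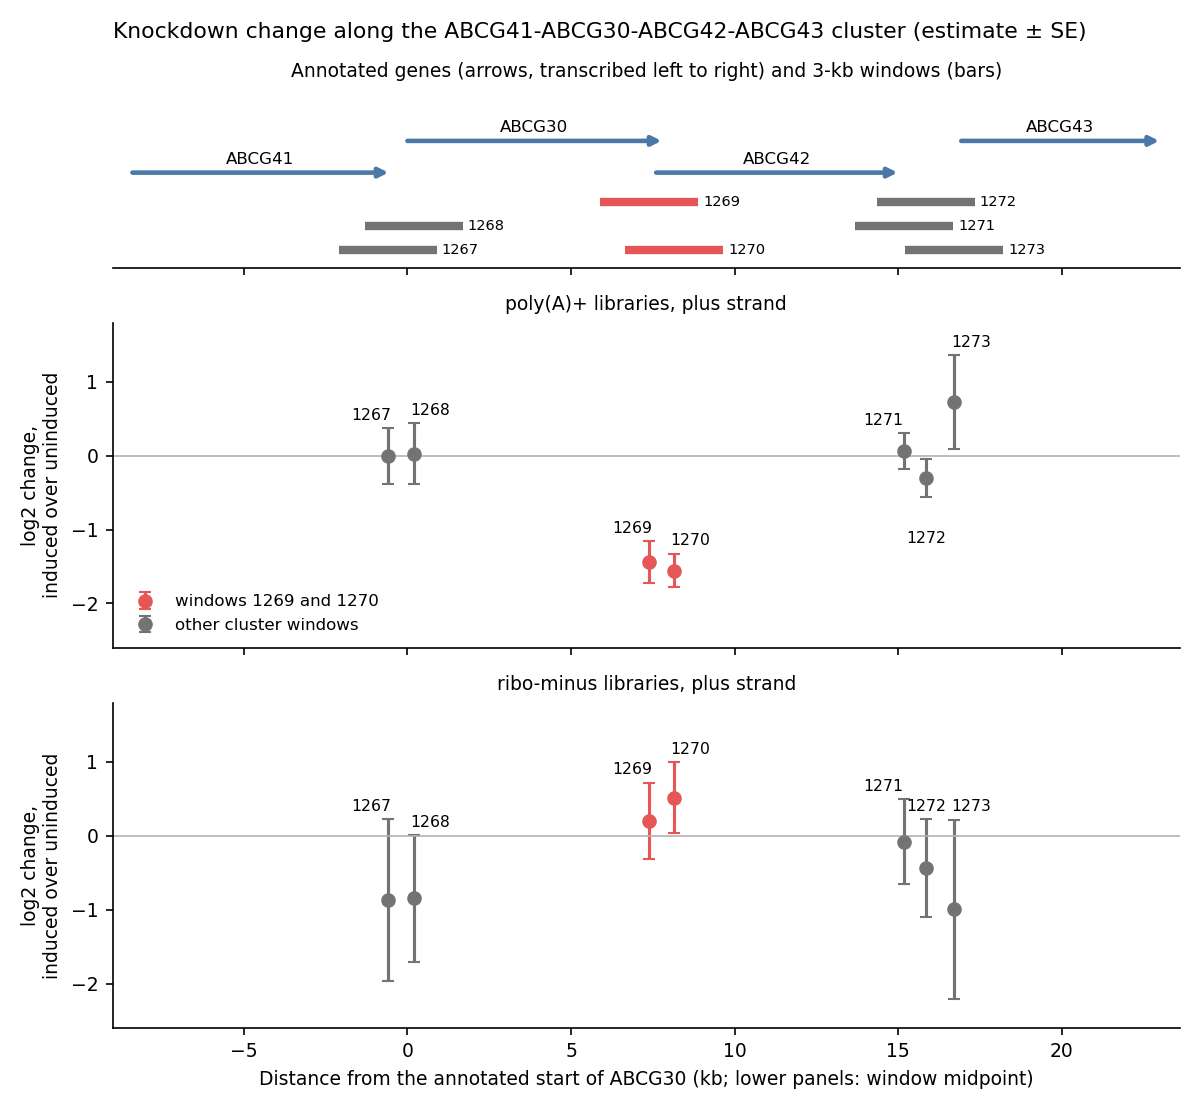
Map of the 4 ABCG genes and the 7 windows over them (top), and the log2 change after knockdown (y axis, induced over uninduced, estimate ± SE) of each window's plus strand in poly(A)+ (middle) and ribo-minus libraries (bottom), against distance from the annotated start of ABCG30 in kb. In poly(A)+, windows 1269 and 1270 lie at -1.44 and -1.55, while the 5 other windows lie between -0.31 and 0.73.

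**Figure D3:**
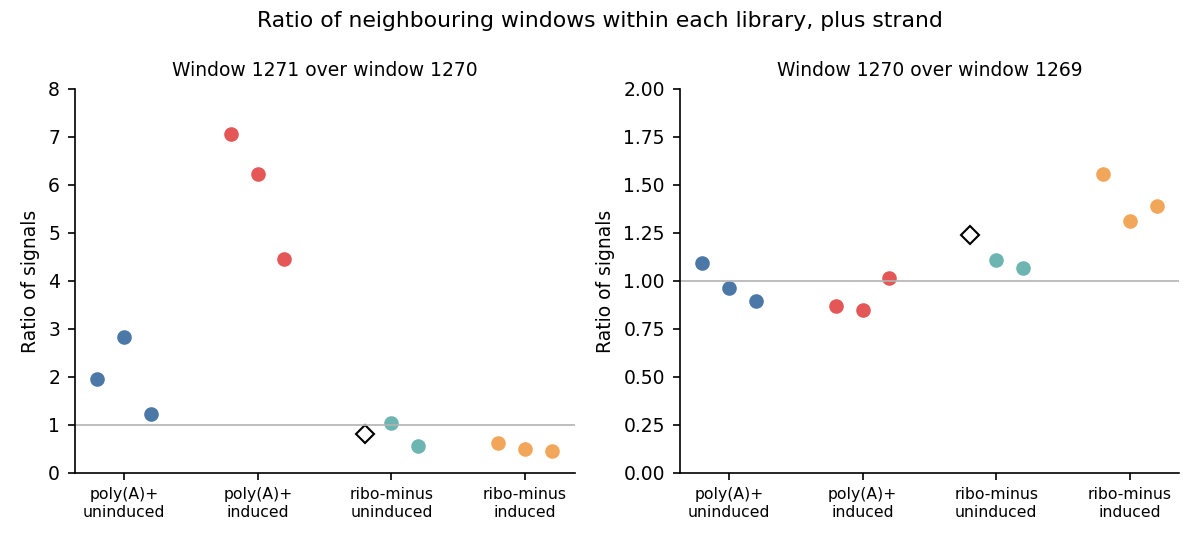
Ratio of the plus-strand signals of window 1271 to window 1270 (left) and of window 1270 to window 1269 (right) in each library. Points are libraries, the open diamond is the library whose strands are not separated, and the grey line marks equal signal. The left ratio is 4.46 to 7.06 in induced poly(A)+ libraries and 0.445 to 0.619 in induced ribo-minus libraries.

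The other ABC transporter genes were set beside the 2 windows, on the strand each is read from. Of 129 annotated ABC transporter genes, 28 overlap a window, and of 42 annotated ABCG genes, 12 do. Besides the 2 windows these give 31 strands, of which 27 or 28 could be tested in each comparison. The median log2 change after knockdown was 0.01 in poly(A)+ and 0.15 in ribo-minus libraries, beside -0.03 and 0.20 over all strands tested. Without the library whose strands are not separated, the ribo-minus medians were -0.29 for the family and -0.12 over all strands. In ribo-minus 0 of 27 strands passed limma's test, beside 0.155% of all strands. An unadjusted p under 0.05 was found for 2 of them, both ABCG23 strands, whose uninduced values were 8168 and 8465 in the library without strand separation and 1236 to 1341 in the others. Without that library 0 of 25 strands passed, beside 8 higher and 2 lower of all 2868 strands, and neither ABCG23 strand had an unadjusted p under 0.05. Such a p was then found for 2 higher and 2 lower strands of the family. The 2 higher ones were windows of ABCF1, with log2 changes of 0.51 and 0.52. In poly(A)+ 2 of 28 passed, both higher, beside 4.12% of all strands. They are overlapping windows of ABCF1, a family member without membrane-spanning parts, which rose from 55505 to 76535 and from 48658 to 67294 (log2 changes of 0.46 and 0.47, adjusted p = 0.019 and 0.015 by limma).

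Among the other ABCG strands, 0 of 16 passed limma's test in either knockdown contrast, and 2 in each had an unadjusted p under 0.05, all lower (0 in ribo-minus without the library whose strands are not separated). Over all strands, 714 of 3297 in poly(A)+ and 172 of 3231 in ribo-minus had such a p, in either direction. ABCG5, needed for the cuticle of seedlings, had 9408, 8555 and 8220 in uninduced and 6748, 6324 and 6546 in induced poly(A)+ libraries. The groups do not overlap, and the log2 change of -0.41 did not pass (adjusted p = 0.068 by limma). In all, 5 of the 28 strands had every induced poly(A)+ library below every uninduced one, 1 each of ABCG14, ABCG5 and ABCG6 and 2 of ABCG23, beside 16.0% of all strands. The lowest log2 change among them, that of ABCG23, was -0.78. Windows 1269 and 1270 lay below all 28 strands, which describes how they were chosen.

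Of the 28 other strands, 15 were lower in ribo-minus than in poly(A)+ RNA in uninduced seedlings and 13 in induced ones, 8 of 16 in each for ABCG strands. The share of all strands was 41.5% in uninduced and 41.3% in induced seedlings. By limma's test 0 were higher, beside 46 of all 3600 strands in uninduced and 28 in induced seedlings. With an unadjusted p under 0.05, 1 was higher, ABCG33 in uninduced seedlings. ABCG33 had 16751 in the library without strand separation and 1257 and 1348 in the other uninduced ribo-minus libraries, and without that library its unadjusted p was 0.11. Without it, 14 of 28 strands were lower in uninduced seedlings, beside 49.2% of all strands. By limma's test 3 were then higher, beside 75 of all 3482 strands tested. These were a window of ABCG14, the window of ABCA6 and ABCA7, and window 1268, with log2 differences of 0.67, 1.5 and 1.51 (adjusted p = 0.014, 0.014 and 0.041 by limma). ABCG6, needed for suberin in roots and seed coats, had log2 differences of -2.33 and -1.83, and ABCG22, which limits water loss from leaves, had -1.62 and -1.53 in its first window. These were near or below the medians of all strands. In induced seedlings 2 of the 28 strands had every ribo-minus library above every poly(A)+ library, beside 2.14% of all strands. One was that same window of ABCG14, which moves cytokinin from root to shoot, with 5712, 5592 and 5281 against 3975, 4258 and 3602, a log2 difference of 0.49 (adjusted p = 0.29 by limma). The other held ABCA6 and ABCA7, with a difference of 0.46. Both values are smaller than those of windows 1269 and 1270, and that difference was not tested. A second window of ABCG14 went the other way. It was lower in ribo-minus, by -1.84 in uninduced and -1.31 in induced seedlings (adjusted p = 3.4e-05 and 0.00091 by limma, all 12 libraries).

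**Figure D4:**
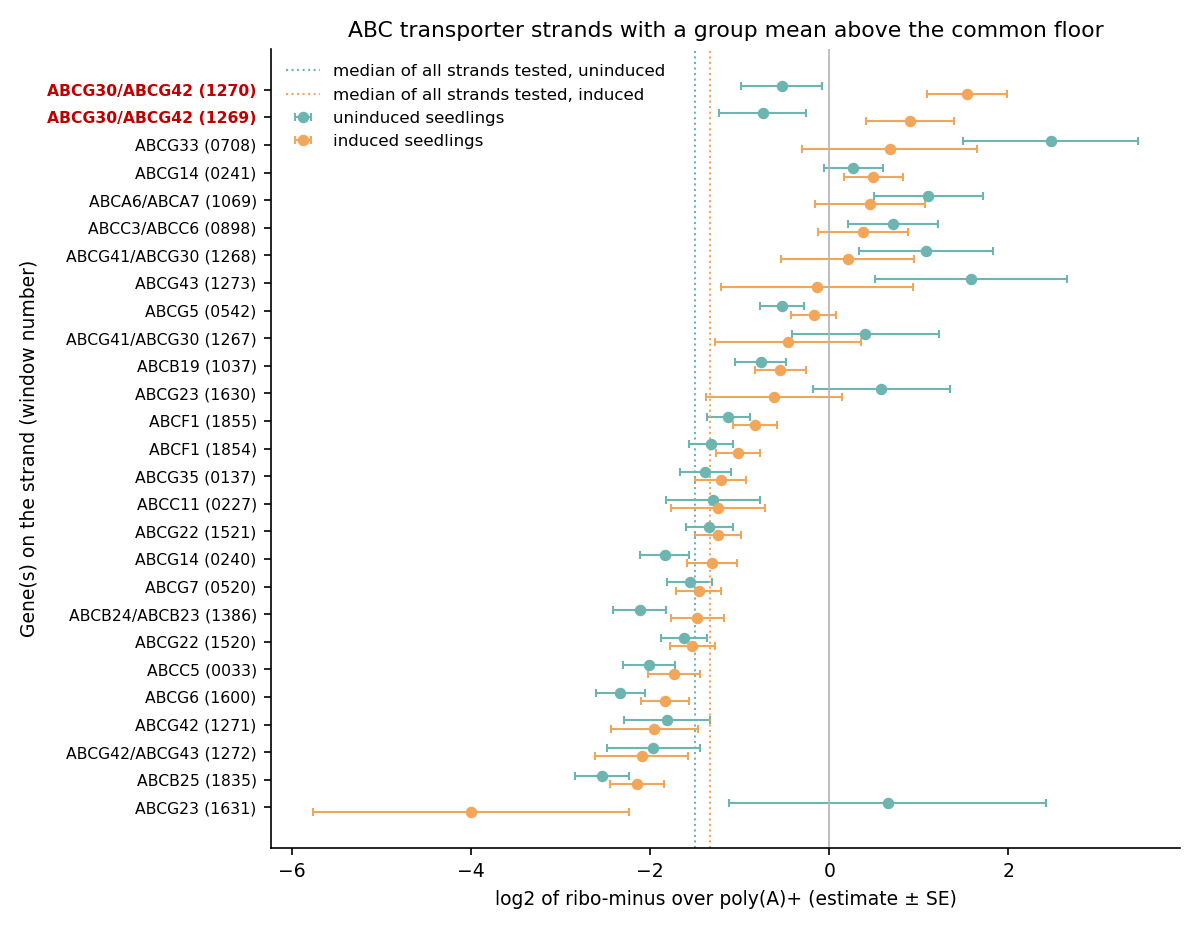
Log2 of ribo-minus over poly(A)+ signal (x axis, estimate ± SE) for every ABC transporter strand with a group mean at or above the common floor of 1005, in uninduced and induced seedlings, with all 12 libraries in the fit. Dotted lines are the medians of all strands tested, -1.5 and -1.34. Windows 1269 and 1270, named in red at the top, lie at 0.90 and 1.54 in induced seedlings, and the second ABCG23 strand, with values at 0 in some libraries, depends on the value added before taking logs.

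Because ABCG30 carries abscisic acid, 42 genes of the synthesis, breakdown, transport, perception and response of that hormone were looked up. Only 4 of them have a window, SNRK2.2 (a kinase of the signalling core), ABF2 (a transcription factor), NPF4.6 (an importer) and RD29B (a response gene), and the transporters ABCG25, ABCG31, ABCG40 and DTX50 have none. By limma's test 0 of the 4 strands passed after knockdown in poly(A)+ or ribo-minus libraries, and 0 had an unadjusted p under 0.05. Over all strands, 714 of 3297 in poly(A)+ and 172 of 3231 in ribo-minus had such a p. In poly(A)+ their log2 changes ran from -0.19 to 0.11, with a median of 0.02. The 3 with the smallest p had means of 71156 and 68919 (SNRK2.2), 10757 and 11233 (ABF2) and 70415 and 75474 (NPF4.6) in uninduced and induced poly(A)+ libraries. The same 3 were lower in ribo-minus than in poly(A)+ RNA in both conditions, where RD29B did not pass and 41.5% and 41.3% of all strands were called lower. Without the library whose strands are not separated, 0 of 4 passed limma's test after knockdown in ribo-minus, beside 8 higher and 2 lower of all 2868 strands. An unadjusted p under 0.05 was found for 1 of the 4, lower after knockdown, and the share of all strands with such a p was not taken there. In uninduced seedlings 3 of 4 were then lower in ribo-minus than in poly(A)+ RNA, beside 49.2% of all 3482 strands tested.

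Windows 1269 and 1270 varied together over the 12 libraries, with a Pearson correlation of log2 values of 0.946, and they share 2248 bp. Of 2904 other strands whose mean was not below that of window 1270 divided by 10, the 5 most like it were ranked by the same measure. The first and second were overlapping windows of SEC10, a subunit of the exocyst, and its neighbour AT5G01935, with correlations of 0.88 and 0.833. The others were a window of MGP, a zinc finger factor of root patterning, and AT1G03830 (0.794), a window of AT1G73200 and AT1G73210 (0.763), and a window of the calcium-dependent protein kinases CPK27 and CPK22 (0.763). All 5 had a lower mean in induced than in uninduced poly(A)+ libraries. The ranking favours this, since it uses the poly(A)+ values that chose window 1270. In the first SEC10 window the poly(A)+ mean went from 10777 to 8237, with 11568 and 12811 in ribo-minus RNA. The same 5 strands led without the library whose strands are not separated, with correlations from 0.723 to 0.849. All points share the libraries and their scale, and the strands were ranked out of many, so the correlations and the lower means are a description.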

How the data were processed

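The authors deposited, for each of 12 libraries, a signal in whole numbers per window of 3000 bp and strand. Per the submitters' processing notes, the tools were TopHat2 2.0.9, CASAVA 1.8.2, Cuffdiff and Cufflinks 2.1.1, with the TAIR10 build. How the signal was made and scaled is not given in the sources used here. Windows were set on the RefSeq annotation and genome of TAIR10.1, whose nuclear coordinates equal those of TAIR10.

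From the deposited signal, log2(value + 1) was fitted with limma 3.58.1 in R 4.3.3 (lmFit, eBayes with trend), without rescaling, over all strands above 0 in at least 3 of the fitted libraries, with Benjamini-Hochberg adjustment over the whole table and a threshold of 0.05. Each knockdown contrast used 6 libraries, and the other contrasts used all 12 with 4 group means. Both knockdown fits were tested on data simulated from strands above the common floor, with a shared spread for all strands. Strands at 0, unequal floors and the library without strand separation were not simulated, so their effect on the calls was not tested this way. Tables used Python 3.11.15, numpy 2.4.6, pandas 2.3.3 and scipy 1.17.1, and figures matplotlib 3.10.9. The limma p-values of the knockdown contrasts rest on the spread between 3 biological replicates a group. Those between fractions rest on the pooled spread of all 12 libraries around their group means. They treat the fractions of a replicate as independent, although both come from the same total RNA.

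The windows and lists were chosen with earlier results of these data known. The windows were chosen from the poly(A)+ knockdown contrast, so they are tested only where no poly(A)+ library enters, minus-strand shares included, which is stricter than planned. Named are the 2 windows, windows within 50 kb, ABC transporter strands (ABCG named, others counted), the abscisic acid list (past the threshold, otherwise the 3 smallest p) and the 5 strands most correlated with the window of higher mean. ABCF1, ABCA6 and ABCA7, the ABCG strands singled out, and ratios between windows were picked after their values were seen. Same-numbered replicates did not deviate together between conditions (correlations of -0.054 to 0.022 in poly(A)+ and -0.268 to -0.049 in ribo-minus), so they are not paired there. The 2 fractions of a replicate come from the same total RNA per the labels (0.013 to 0.115 uninduced, 0.19 to 0.212 induced), and a block for the RNA sample was added after seeing the data.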

Additional observations from a re-analysis of the deposited data

How the results depend on the processing

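The scale of the signal is unknown, libraries differ 9.39-fold in their smallest value above 0, and 3 replicates leave wide intervals. The 2 windows overlap, so they give 1 reading of the locus. The alternatives were no filter, a filter on the mean, pseudocounts of 0.1 and 10, median-ratio scaling, no trend, leaving out 1 library at a time, a replicate block, and knockdown estimated from a fit to all 12 libraries. A common floor, with and without the library whose strands are not separated, was chosen from earlier results of these data, and a block for the shared RNA sample was added after seeing the data. That block moved no count of calls between fractions by over 1.5 times. Neither window passed the threshold in the ribo-minus knockdown contrast under any of these.

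The number of strands called after knockdown in ribo-minus was 5, all higher, and it was 40 without a filter (29 lower), 2 with median-ratio scaling, 8 without the trend, 10 with the replicate block, 33 with the common floor and 11 libraries (18 lower), and 12 with all libraries in the fit. Leaving out each library gave 3 to 61, with 48 of 61 lower without uninduced replicate 2 and 46 of 59 lower without replicate 3. In poly(A)+ the 136 calls became 229 without a filter, 263 with the filter on the mean, 262 with the common floor (and 262 with 11 libraries), 64 with the replicate block, 17 with all libraries in the fit, and 68 to 202 with each library left out, lowest without uninduced replicate 2 and highest without induced replicate 3. Median-ratio scaling lowered the calls between fractions to 949 in uninduced (452 higher in ribo-minus) and 512 in induced seedlings (256 higher). The replicate numbers are not paired across conditions. The causes were not tested.

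For the windows, the ribo-minus knockdown change reversed with the common floor and 11 libraries, to -0.51 (window 1269) and -0.13 (window 1270), and leaving out each library gave -0.51 to 0.68 and -0.13 to 0.97. The uninduced difference of ribo-minus from poly(A)+ reversed under median-ratio scaling, to 0.82 and 1.03, and for window 1270 with the common floor and 11 libraries, to 0.11. With each library left out it ran from -1.22 to -0.04 and from -0.99 to 0.11. In induced seedlings scaling gave 2.3 and 2.94, and leaving out libraries gave 0.75 to 1.11 and 1.41 to 1.76. The difference between fractions of the knockdown change in window 1270 was 1.43 with the common floor and 11 libraries, and 1.43 to 2.53 with each library left out. The poly(A)+ change stayed between -1.67 and -1.14 and between -1.71 and -1.31 when libraries were left out.

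With each library left out, the minus-strand share of ribo-minus less that of poly(A)+ in uninduced seedlings ran from -3.04 to 16.5 percentage points (window 1269) and from -3.27 to 13.5 (window 1270), and with the library whose strands are not separated it was 20.2 and 19.0. The share in induced less uninduced ribo-minus ran from -16.2 to 3.31 and from -14.3 to 2.48. The sign turned without uninduced replicate 3, the 1 strand-separated library above the common floor.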
